A study of Mus musculus with 816 samples.

Results

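Clec4e, Clec4d, Clec4n and Clec5a encode C-type lectin receptors of myeloid cells. Clec4e is known as Mincle, Clec4d as MCL or Dectin-3, Clec4n as Dectin-2 and Clec5a as MDL-1. They were taken by name, and all 4 of the 4 names were found among the 45581 genes listed for the cultures and the 29858 listed for the mice. The first 3 are often called the Mincle cluster, and all 4 passed the filter on low values in cultures (over 5 CPM in at least 4 cultures, 16942 genes). Their level in a sample is given as CPM, the reads of a gene scaled to the mapped reads of the sample.

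The study set out to drive microglia into many activation states, and it later used Clec4e, picked on these cultures, as a marker of a group of co-expressed genes. Commercial primary microglia from neonatal mouse brain were left untreated or stimulated for 4, 24 or 72 h, which gave 784 cultures in 98 combinations of stimulus and time, 97 of them with at least 3 cultures. Untreated cultures numbered 40 at 24 h and 25 at 72 h, and none is labelled 4 h. Doses of the stimuli that matter here were 0.0001 µg/µl of LPS for LPS_hi and 0.00001 µg/µl for LPS_lo, 0.000004 µg/µl TNFa, 0.001 µg/µl of P3C and of PGE2, 0.0001 µg/µl of IFNg, IFNb and TGFb, 0.0008 µg/µl IFNa, 0.00005 µg/µl of IL4, IL10 and IL13, 0.000005 µg/µl GMCSF, 2 µg/µl HDL and 0.2 µg/µl polyIC (labelled IC). Microglia were also isolated with CD11b magnetic beads from whole brain of C57BL/6 mice: 4 females given 2 mg/kg LPS and 4 given PBS, all 2 months old and taken after 4 h, and naive males of 2 months (n = 11) and 22 months (n = 13). CD11b is also carried by monocytes and neutrophils. The mice were perfused before the brain was taken, and the study checked such isolates by flow cytometry for CD45. Nothing in the labels says that wells of a group were separate preparations of cells. The cells came from 3 lots, with all 3 at 24 h, 2 at 4 h and only 1 at 72 h. The p-values therefore measure the spread between wells, and times also differ in their lots.

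C-type lectin receptors bind carbohydrates and lipids on microbes and dead cells. Mincle, MCL and Dectin-2 have short tails and signal through the adaptor FcRγ (Fcer1g), whereas MDL-1 pairs with DAP12 (Tyrobp) and DAP10 (Hcst). FcRγ and DAP12 recruit the kinase Syk, and from there the Card9, Bcl10 and Malt1 complex leads to NF-kB and to cytokine genes. Mincle recognises mycobacterial cord factor and the nuclear protein SAP130 of dying cells, MCL binds cord factor and forms pairs with Mincle, Dectin-2 binds mannan of fungi, and MDL-1 is best known as a flavivirus receptor. In macrophages, Mincle is a textbook example of a receptor induced by inflammatory stimuli, and C/EBPβ (Cebpb) takes part in that induction.

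On GRCm38 chromosome 6, Clec4n (123229843 to 123247021, plus strand), Clec4d (123262111 to 123275265, plus strand) and Clec4e (123281789 to 123289870, minus strand) lie side by side, with gaps of 15.1 kb and 6.5 kb. Clec5a (40574894 to 40585821, minus strand) is on the same chromosome, 82.6 Mb from Clec4n, so it is not a member of the cluster by position. The RefSeq promoter windows (GRCm38.p6, 250 bases before to 50 after the start) of Clec4e (chr6:123289822-123290121, minus strand), Clec4d (chr6:123261857-123262156, plus strand) and Clec5a (chr6:40585756-40586055, minus strand) follow 5′ to 3′ on the gene's strand. They are shown because 3 of the 4 genes could be read this way, and capitals mark the core letters GAGGAA (or TTCCTC on the other strand) of PU.1 (Spi1), the factor that defines myeloid cells.
Clec4e: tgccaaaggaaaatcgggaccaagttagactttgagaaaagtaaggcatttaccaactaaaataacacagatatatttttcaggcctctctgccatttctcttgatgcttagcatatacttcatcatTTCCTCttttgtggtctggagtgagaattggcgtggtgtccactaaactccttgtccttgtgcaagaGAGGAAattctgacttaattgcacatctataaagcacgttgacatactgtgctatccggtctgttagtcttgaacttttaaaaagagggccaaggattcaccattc
Clec4d: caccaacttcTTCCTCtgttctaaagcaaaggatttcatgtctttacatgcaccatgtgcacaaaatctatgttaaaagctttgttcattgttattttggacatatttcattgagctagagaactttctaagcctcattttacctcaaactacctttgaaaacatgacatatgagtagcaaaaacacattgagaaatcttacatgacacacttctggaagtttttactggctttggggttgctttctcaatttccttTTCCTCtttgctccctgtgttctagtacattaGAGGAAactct
Clec5a: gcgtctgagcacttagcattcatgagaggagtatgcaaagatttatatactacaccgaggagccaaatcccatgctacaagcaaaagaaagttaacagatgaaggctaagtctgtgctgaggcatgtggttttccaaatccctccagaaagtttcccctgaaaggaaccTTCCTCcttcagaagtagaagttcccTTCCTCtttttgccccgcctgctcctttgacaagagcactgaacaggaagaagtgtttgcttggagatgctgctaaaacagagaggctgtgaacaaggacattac
The core occurs 2 times in the window of Clec4e, 3 times in that of Clec4d and 2 times in that of Clec5a, and 28.3% of the 32851 promoters of the table hold it. A further 5 motifs were searched on both strands, each without regard to overlap. The C/EBP letters TTGCNNAA occur in the Clec4e window (10.8% of promoters) and the interferon-stimulated response element TTTCNNTTT in the Clec4d window (10.6%), where the match overlaps a PU.1 core. The AP-1 letters TGANTCA (7.81%), the cAMP response element TGACGTCA (1.79%) and the kappaB motif (4.51%) were found in none of the 3 windows. These are matches of letters and were not tested as binding sites.

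Depth ranged from 1.00 to 38.2 M mapped reads per culture (median 4.67 M) and from 2.36 to 7.78 M per mouse (median 4.08 M). The position of the well on the plate moved with the levels of the lectins. In a model with plate, condition and, for each time, the position, Clec4d was higher in outer wells (edge or corner) than in middle wells by 0.84, 0.72 and 1.39 on the log2 scale at 4, 24 and 72 h, with standard errors (SE) of 0.13, 0.05 and 0.06. Clec4n was higher in outer wells by 0.83 at 24 h (SE 0.12) and 2.52 at 72 h (SE 0.15, adjusted p = 9.73e-49). The value of Clec4n at 4 h was 0.59 (adjusted p = 0.334), and those of Clec5a were between 0.05 and 0.20 with adjusted p of at least 0.232. For Clec4e the values were 0.46 and -0.10 at 4 and 24 h (adjusted p = 0.381 and 0.699), while at 72 h it was lower in outer wells by a log2 of -0.44 (adjusted p = 0.00321), under the fold required for a call. Of all genes, 1.70%, 0.449% and 2.44% were called between outer and middle wells at the 3 times.

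At 72 h, 15 of the 25 untreated cultures but 80 of the 278 treated ones sat in outer wells, and the 10 untreated cultures in middle wells were all on plate F. The plot of untreated wells shows this by plate. Clec4n was between 23.2 and 46.2 CPM in the middle wells of plate F and between 182 and 579 CPM in the outer wells of plates E, I and J. Clec4d was between 178 and 295 CPM in the former and between 483 and 860 CPM in the latter, so for both genes the 2 sets of wells did not overlap. Clec4e ran the other way, from 6.61 to 32.6 CPM on plate F and from 0.0797 to 9.32 CPM on the other plates. Plate and position cannot be told apart within the untreated cultures of 72 h. Every comparison was therefore fitted a second time with plate and outer wells in the model, a choice made after the data were seen, and a change is said to hold where it was called in both fits. In cultures, a call needed an adjusted p under 0.05 and a log2 change of at least 1.

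**Figure D1:**
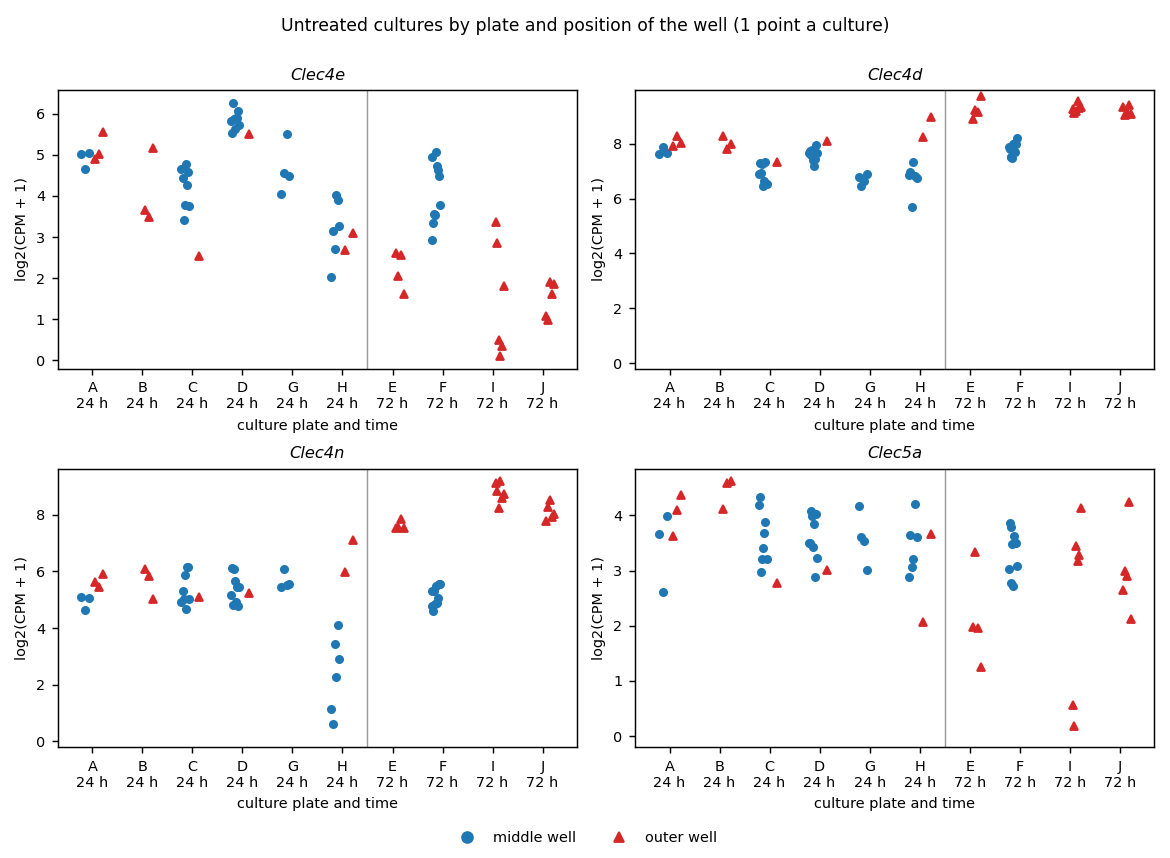
Level of the 4 genes (log2 of CPM + 1) in each untreated culture, by plate (letters) and time, with middle wells as blue circles and outer wells as red triangles. At 72 h the middle wells of plate F lie below the outer wells of plates E, I and J for Clec4d and Clec4n, and mostly above them for Clec4e.

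After 24 h, Clec4e was induced by bacterial and viral ligands and by TNFa, and the other 3 genes were not part of that response as a block. Clec4e rose with 11 of 44 stimuli and fell with 1. Clec4d rose with 7 and fell with 2, Clec4n rose with 3 and fell with 5, and Clec5a rose with 2 and fell with 3. Over all genes and the 44 comparisons, 1.54% of values were called as rises and 3.12% as falls, and in the second fit 1.39% and 3.00%. All 11 rises of Clec4e and all 7 of Clec4d held, as did 2 of 3 rises of Clec4n and 2 of 2 of Clec5a, whereas the fall of Clec4e with valproic acid (log2 change -1.52) did not (-1.23, adjusted p = 0.335).

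Clec4e was at 3.09, 23.5 and 75.8 CPM (lowest, median, highest) in the 40 untreated cultures. It was at 269, 1117 and 2619 CPM with LPS_hi (n = 18), at 233, 298 and 495 CPM with LPS_lo (n = 7), at 118, 521 and 843 CPM with P3C (n = 6), and at 87.7, 279 and 574 CPM with polyIC (n = 8). TNFa, itself a product of LPS-treated microglia, gave 148, 573 and 894 CPM (n = 7). Each of these groups lay wholly above the untreated cultures. The log2 changes of Clec4e were 5.28 (SE 0.30) for LPS_hi, 4.17 (SE 0.47) for P3C, 4.15 (SE 0.44) for TNFa, 3.86 (SE 0.44) for LPS_lo and 3.31 (SE 0.42) for polyIC, with adjusted p of at most 8.31e-13. The remaining 6 rises belonged to the combinations of LPS with estradiol, GABA, minocycline, CCL2, rapamycin or resveratrol, with log2 changes between 3.33 and 4.61. None of the type I interferons, IFNg or IL4 changed Clec4e at 24 h under this rule.

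Clec4d rose by small steps and with agents of unlike kinds. Against 51.3, 167 and 502 CPM in untreated cultures, it was at 197 to 966 CPM with dopamine (log2 change 1.35, n = 9), 219 to 557 CPM with nicotine (1.3, n = 8), 295 to 567 CPM with norepinephrine (1.28, n = 7), 235 to 604 CPM with TNFa (1.27, n = 7), 237 to 747 CPM with HDL (1.24, n = 8), 250 to 865 CPM with resveratrol (1.14, n = 11) and 261 to 462 CPM with PGE2 (1.00, n = 8). All 7 ranges overlapped that of the untreated cultures. By plate, the rises with nicotine, norepinephrine, TNFa and HDL cleared the untreated wells on every plate, and that with PGE2 on A and C but not on B. That with dopamine was 0.16, 0.38 and 2.74 on plates A, B and C, with overlap on A, and that with resveratrol 0.28, 0.17, 1.77 and 1.26 on A, B, D and H, with overlap on all but D. IFNg lowered Clec4d to between 41.1 and 76.0 CPM (log2 change -1.52, SE 0.24, adjusted p = 4.18e-08, n = 9) and IL4 to between 29.1 and 140 CPM (-1.18, SE 0.22, n = 11). LPS_hi left Clec4d at 112, 275 and 455 CPM, under the fold required.

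Clec4n rose most with HDL, the cholesterol-carrying lipoprotein, from 0.538, 37.2 and 135 CPM in untreated cultures to 93.2, 221 and 362 CPM (log2 change 2.70, SE 0.51, adjusted p = 0.000166, n = 8). Within plate C its values were 270 to 362 CPM with HDL against 24.7 to 70.7 CPM untreated, and within plate G 93.2 to 172 CPM against 43.1 to 66.8 CPM, so the groups did not overlap on either plate. Clec4d and Clec5a also kept apart from the untreated wells of both plates with HDL, Clec4d above them and Clec5a below (0.779 to 6.61 CPM, log2 change -1.44), although the fall of Clec5a was not called in the second fit (-1.0, adjusted p = 0.136). GMCSF, a growth factor of myeloid cells, raised Clec4n to 3.31, 235 and 410 CPM (log2 change 1.75, n = 8), with a wide spread and with overlap on plate H. Clec4n fell with IFNa (-1.84), TGFb (-1.73), IFNb (-1.67) and IL4 (-1.38), each of which held. The cultures with TGFb, IFNb and IL4 lay below the untreated wells of every plate they shared, while those with IFNa overlapped them on plates D (-0.89) and H (-1.58). The rise with P3C (1.69) and the fall with LPS_hi (-1.05) did not hold, at 0.91 and -0.81 in the second fit.

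Clec5a was the gene raised by TNFa and IFNg and lowered by type I interferons. From 3.18, 11.3 and 23.6 CPM it went to 30.2, 44.5 and 67.6 CPM with TNFa, without overlap (log2 change 1.92, SE 0.37, adjusted p = 4.01e-05), and to 9.88, 40 and 57.4 CPM with IFNg (1.41, SE 0.34). With IFNa it was at 0.440, 3.57 and 9.16 CPM (-1.36, SE 0.35) and with IFNb at 0, 3.80 and 17.3 CPM (-1.31, SE 0.32), and all 4 changes held in the second fit. On plate C the IFNg cultures overlapped the untreated ones (0.38). The IFNa cultures overlapped them on both of their plates, D (-0.62) and H (-1.77), and the IFNb cultures on plates B (-0.60) and C (-2.28) but not on G (-1.70). IFNg thus went with more Clec5a and less Clec4d in the same wells, and TNFa was the stimulus that raised Clec4e, Clec4d and Clec5a together. The value of Clec4n with TNFa was 1.63 (adjusted p = 0.0622), and in the second fit 1.49 (adjusted p = 0.0121).

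**Figure D2:**
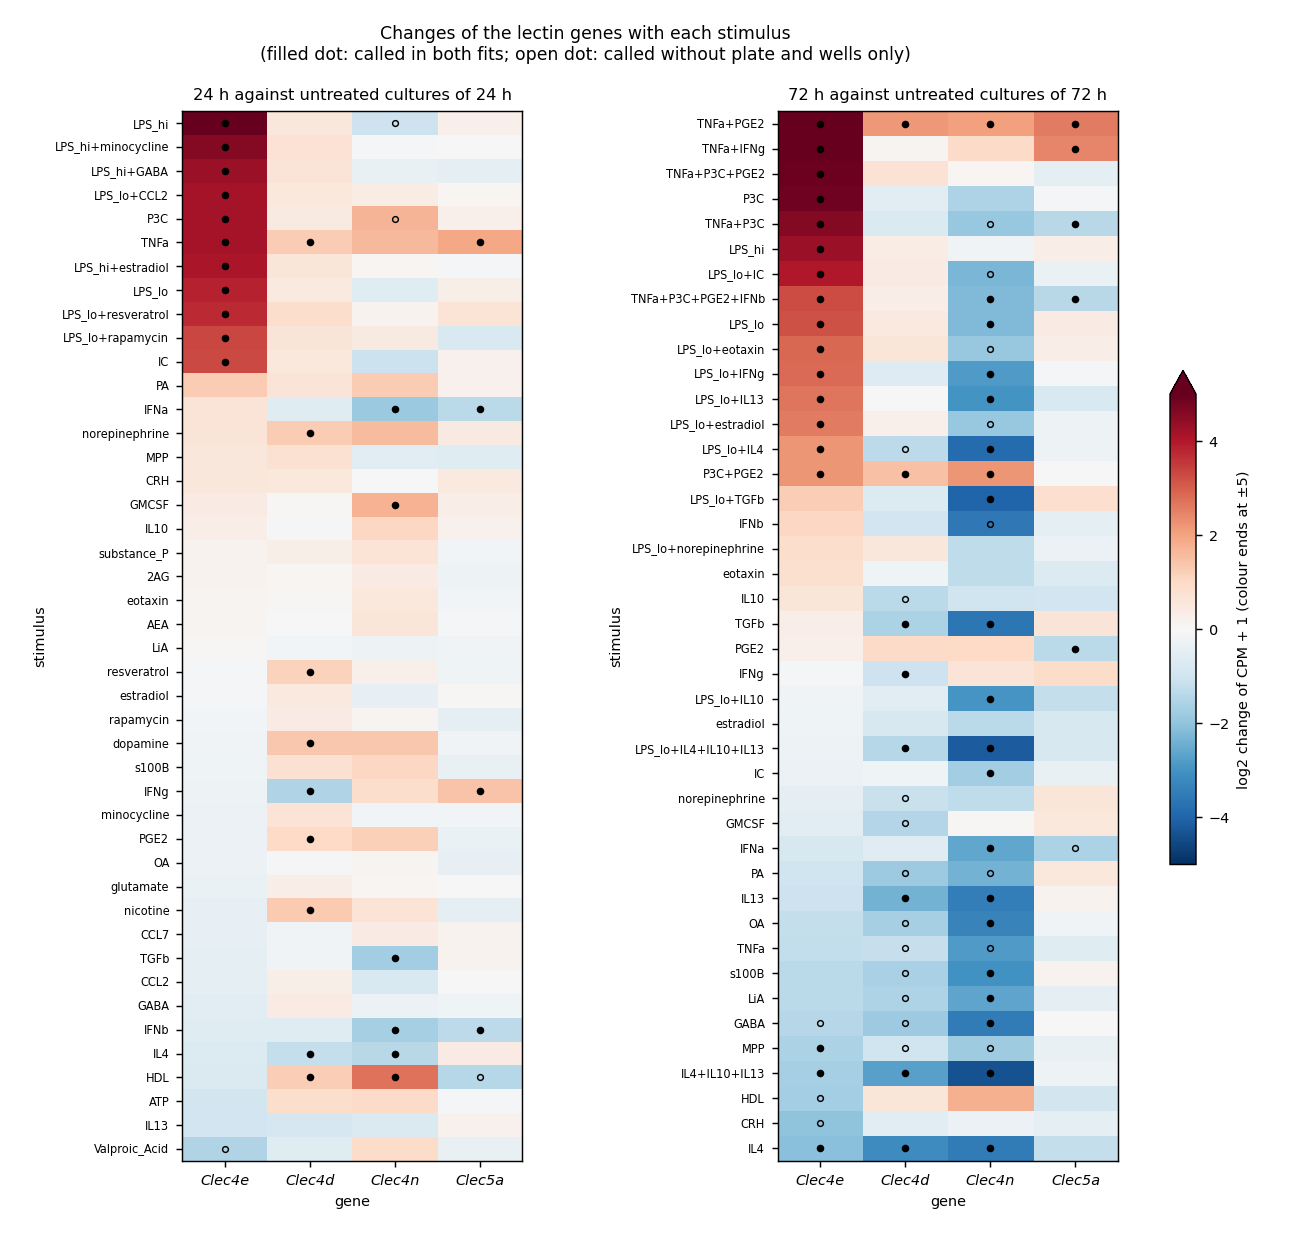
Log2 change of CPM + 1 against untreated cultures of the same time for each stimulus (rows, ordered by Clec4e) and gene (columns), red for higher and blue for lower. Filled dots mark calls in both fits and open dots calls in the fit without plate and wells only: Clec4e has 11 filled dots at 24 h and 15 among its rises at 72 h, and most dots of Clec4n at 72 h are falls.

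After 4 h the rise of Clec4e with LPS was already in place. Cultures of 4 h had to be compared with untreated cultures of 24 h, so the time and the stimulus cannot be told apart there. Clec4e was at 636, 859 and 1289 CPM with LPS_hi (n = 7, log2 change 5.24, SE 0.44, and 4.42 in the second fit), and it lay wholly above the 18, 47.5 and 55.1 CPM of cultures given the chemokine CCL7 for the same 4 h (n = 7, log2 change 4.47, SE 0.57, adjusted p = 1.92e-12). Clec5a was at 11.6, 37.2 and 52.4 CPM with LPS_hi and 2.98, 7.72 and 19.1 CPM with CCL7 (log2 change 1.66, SE 0.49, adjusted p = 0.00591). For Clec4d and Clec4n this contrast gave 0.33 (adjusted p = 0.610) and -1.72 (adjusted p = 0.065), the latter called in the second fit (-1.51, adjusted p = 0.0268). Between 4 h LPS_hi and CCL7, 18.8% of genes were called.

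Among the 9 conditions of 4 h, Clec4e rose in 6, Clec4d in 2 and Clec5a in 2 against untreated cultures of 24 h, Clec5a fell in 1 and Clec4n was called in none, where 2.68% of values over all genes were rises and 8.80% falls (3.02% and 7.92% in the second fit). ATP gave Clec4e values of 125, 189, 95.9, 90.2 and 163 CPM, all above the highest untreated culture, with a log2 change of 2.49 that held (1.57). Norepinephrine gave 54.5, 79.1 and 183 CPM (2.08, and 1.10 with adjusted p = 0.0512 in the second fit), and it lowered Clec5a to 0, 3.62 and 18.4 CPM (-1.97, SE 0.37), which came from the 3 cultures of plate G, all at 0, since plate D gave -0.71 with overlap. With LPS_hi and nicotine, Clec5a reached 37, 53.6 and 67.4 CPM (2.09), the highest mean of any condition. Clec4d rose with LPS_hi and norepinephrine (1.36) and with LPS_hi and nicotine (1.22), of which the latter did not hold (0.48, adjusted p = 0.0845).

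The time course of LPS_hi set the genes apart. From 4 to 24 h Clec5a fell by a log2 of -1.08 (SE 0.40, adjusted p = 0.0461, and -1.45 in the second fit, 14.7% of genes called), while Clec4e differed by 0.04 (SE 0.48, adjusted p = 0.996). From 24 to 72 h Clec4e fell from a median of 1117 to 158 CPM (-2.82, SE 0.39), and Clec4d and Clec4n rose by 1.14 and 2.84, with 13.1% of genes called. None of these 3 held (-1.38, -0.28 and -1.03), and LPS_hi cultures of the 2 times shared no plate. The untreated cultures behaved alike: at 72 h Clec4e was lower than at 24 h by a log2 of -1.86, Clec4d higher by 1.3 and Clec4n higher by 1.98, with 7.32% of genes called, and the second fit gave -1.12, -0.08 and -1.04 with adjusted p of at least 0.637. Between the doses of LPS, Clec4e differed by 1.42 (adjusted p = 0.272) at 24 h and by 1.12 (adjusted p = 0.108) at 72 h, the latter called in the second fit (2.00, adjusted p = 8.5e-06). Clec4n was higher with LPS_hi than LPS_lo at 72 h by 2.00 but not in the second fit (0.29), and 4.89% of genes were called between these doses.

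At 72 h Clec4e again rose with many stimuli, whereas falls of Clec4n outnumbered its rises. Clec4e rose with 15 of 42 stimuli and fell with 6, Clec4d rose with 2 and fell with 17, Clec4n rose with 2 and fell with 26, and Clec5a rose with 2 and fell with 4. Over all genes, 2.98% of values were rises and 3.80% falls, or 2.99% and 3.87% in the second fit. All 15 rises of Clec4e held and 3 of its 6 falls. Of the falls of Clec4d, 6 of 17 held, and of those of Clec4n 18 of 26. The median log2 value of Clec4n over the 42 stimuli was -2.05 in the first fit and -1.11 in the second, and that of Clec4d -0.67 and -0.20. The high levels of both genes in outer wells, where most untreated cultures of 72 h sat, stand beside these falls.

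The highest mean levels of Clec4e and Clec4d in the whole panel came from TNFa given with PGE2, a prostaglandin that signals through cAMP. In these 8 cultures Clec4e was at 375, 1247 and 4354 CPM, Clec4d at 1350, 1747 and 3530 CPM, Clec4n at 338, 525 and 750 CPM and Clec5a at 22.2, 41.5 and 71.8 CPM. Against untreated cultures of 72 h the log2 changes were 7.70 (SE 0.44), 2.15 (SE 0.27), 2.03 (SE 0.54) and 2.58 (SE 0.37), and in the second fit 7.37, 2.66, 3.02 and 2.36. It was the only condition of 72 h in which all 4 genes were called as rises. Clec4e, Clec4d and Clec5a did not overlap with the untreated cultures on plate F or plate J, and Clec4n did not on plate F.

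PGE2 alone (n = 8, on the same plates) left Clec4e at 0.316, 10.3 and 33.3 CPM, Clec4d at 602, 698 and 2138 CPM, Clec4n at 118, 207 and 1108 CPM and Clec5a at 0, 1.96 and 10.5 CPM. Against these cultures, TNFa with PGE2 raised Clec4e by 7.44 (SE 0.54, adjusted p = 2.71e-35), Clec5a by 3.92 (SE 0.45, adjusted p = 1.47e-14) and Clec4d by 1.19 (SE 0.33, adjusted p = 0.00628), and 8.85% of genes were called. Clec4n differed by 1.03 and was not called. Clec4e was 1436 to 4354 CPM against 18.1 to 33.3 CPM on plate F and 375 to 1058 CPM against 0.316 to 2.53 CPM on plate J. Clec4d overlapped between these groups on plate F, where 1 PGE2 culture at the right edge held 2138 CPM, and not on plate J. PGE2 alone lowered Clec5a against untreated cultures (log2 change -1.34, and -1.56 in the second fit). Its values for Clec4d and Clec4n were 0.96 and 1.00 (adjusted p = 0.00676 and 0.256), and both were called in the second fit only (1.47 and 1.99).

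TNFa alone was given to 3 cultures at 72 h, all in middle wells of plate J. They held Clec4e at 3.04, 3.88 and 0 CPM, Clec4d at 84.5, 192 and 388 CPM, Clec4n at 89.6, 4.04 and 11.4 CPM and Clec5a at 15.7, 5.55 and 0 CPM. Their Clec4e lay within or below the range of all untreated cultures, although 2 of the 3 were above the 0.990 to 2.75 CPM of untreated wells on plate J. After 24 h of TNFa every culture was above all untreated ones. Clec4d (-1.14) and Clec4n (-2.84) were called as falls against untreated cultures, and neither held (-0.05 and -1.49). With TNFa and IFNg together, Clec4e was at 47.1, 299 and 470 CPM, Clec4n at 38.1, 330 and 710 CPM and Clec5a at 20.7, 43.3 and 66.2 CPM (n = 8). Against TNFa alone the log2 changes were 6.32 (SE 0.73) for Clec4e, 3.80 (SE 0.89) for Clec4n and 3.03 (SE 0.62) for Clec5a, which held, and 1.26 for Clec4d, which did not (0.68, adjusted p = 0.0547). On plate J, the only plate with TNFa alone, the Clec4n values of the groups overlapped (3.05). IFNg alone (n = 6) held Clec4e at 0, 9.32 and 31.5 CPM, Clec4n at 75.2, 234 and 397 CPM and Clec5a at 5.24, 12.2 and 22.6 CPM. Against untreated cultures, TNFa with IFNg raised Clec4e (5.10) and Clec5a (2.43), while Clec4n was at 0.97 (adjusted p = 0.275), with 3.59 on plate F and -0.90 on plate J. Leaving out each TNFa culture in turn moved the difference of Clec4d from TNFa alone between 0.70 and 1.79, and 2 of these 3 fits lost the call.

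Whether a pair of stimuli differed from the sum of its parts was tested as an interaction, added after the data were seen. For TNFa with PGE2 the excess over the sum was 8.66 (SE 0.85) for Clec4e, 4.53 (SE 0.72) for Clec5a, 3.87 (SE 1.04) for Clec4n and 2.33 (SE 0.52) for Clec4d on the log2 scale, and for TNFa with IFNg it was 6.42, 2.11, 3.17 and 2.29 in the same order. All 8 were called in both fits, and each rests on the 3 cultures with TNFa alone. Many other genes were called in these tests, 27.6% of all genes with PGE2 (24.6% in the second fit) and 24.8% with IFNg (22.0%). Without each of these in turn, Clec4e stayed between 7.94 and 9.09 with PGE2 and between 5.70 and 6.85 with IFNg. Clec4n ran from 2.96 to 5.04 with PGE2, where 1 of 3 fits lost the call, and from 2.26 to 4.34 with IFNg, where 2 did. Clec5a with IFNg ran from 0.98 to 3.01 and lost the call in 1. For P3C with PGE2 the interaction of Clec4e was negative, -2.92 (SE 0.74, adjusted p = 0.00668), where 3.39% of all genes were called (5.39% in the second fit). For TNFa with P3C the interactions were 0.96 for Clec4e, -0.70 for Clec5a, 2.51 for Clec4n and 0.96 for Clec4d, with adjusted p between 0.114 and 0.646 (limma), and 12.8% of all genes were called (13.1%).

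P3C with PGE2 parted Clec4e from its neighbours. P3C alone raised Clec4e to 113, 192 and 236 CPM (log2 change 4.85, SE 0.49, n = 6), with Clec4d at 154, 362 and 380 CPM and Clec4n at 23.4, 45.7 and 58.3 CPM. With PGE2 added (n = 7), Clec4e was at 10.7, 32.9 and 62.8 CPM, Clec4d at 846, 1053 and 1622 CPM and Clec4n at 406, 519 and 1770 CPM. No value overlapped between the 2 groups in any of these 3 genes, on plate F or plate J. Outer wells held 0 of the 6 cultures with P3C alone and 4 of the 7 with P3C and PGE2. The groups thus also differ in well position, which a comparison by plate does not take into account. The log2 changes were -2.66 (SE 0.60) for Clec4e, 2.01 (SE 0.37) for Clec4d and 3.78 (SE 0.73) for Clec4n, and -2.0, 1.33 and 2.22 in the second fit. When TNFa was present as well, PGE2 was followed by a rise of Clec4d (1.46) that did not hold (0.59, adjusted p = 0.0815), and IFNb on top of TNFa, P3C and PGE2 lowered Clec4n (-2.31, SE 0.70, and -2.38 in the second fit). That fall came from plate J (-4.56), and on plate F the value was 0.22 and the groups overlapped.

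IL4 and IL13, cytokines of the type 2 response, lowered Clec4d and Clec4n, alone and in a mix with IL10. After IL4 (n = 3) Clec4d was at 61.6, 39.9 and 39.1 CPM, Clec4n at 16.1, 3.76 and 17 CPM and Clec4e at 0, 0.209 and 1.68 CPM, all from plate E. Clec4d and Clec4n lay wholly below the untreated cultures (log2 changes -3.13, SE 0.40, and -3.49, SE 0.81). The fall of Clec4e (-2.09, adjusted p = 0.0419) lost its call in each of the 3 fits without 1 of the IL4 cultures, with values between -2.52 and -1.81, and that of Clec4n lost it in 1 (between -3.82 and -2.86). IL4, IL10 and IL13 together (n = 6) gave Clec4n 0.320, 7.55 and 42.5 CPM (-4.34, SE 0.60) and Clec4d 4.79, 142 and 174 CPM (-2.73, SE 0.30), and IL13 alone gave -3.46 and -2.35. These changes all held, with second-fit values of -2.51 and -2.08 for IL4 in the order Clec4d and Clec4n, -2.87 and -4.71 for the mix, and -1.71 and -2.62 for IL13. Clec4n also fell with TGFb (-3.61), GABA (-3.48), OA (-3.32), s100B (-3.04), LiA (-2.64) and IFNa (-2.61), and all of these held, with second-fit values of -2.36, -2.22, -2.45, -1.77, -1.70 and -2.77 in the same order. TGFb was given on plate F only, where its difference from untreated wells was -1.74. IL13, the mix, GABA, OA, s100B, LiA and IFNa were given on plates E and I. All untreated cultures of these plates sat in outer wells. Outer wells held 0 of 3 cultures with IL4, 1 of 6 with IL13 and 4 of 6 with the mix. They held 0 of 8 with GABA, 1 of 7 with OA, 0 of 7 with s100B, 1 of 8 with LiA and 4 of 7 with IFNa. The second fit there rests on the modelled difference between outer and middle wells. Clec4n with OA overlapped the untreated wells on plate I. The rise of Clec5a with TNFa and IFNg to 20.7 CPM or more (log2 change 2.43) and its falls with TNFa and P3C (-1.39), TNFa, P3C, PGE2 and IFNb (-1.38) and PGE2 were its only other calls that held at 72 h beside TNFa with PGE2. By plate, the fall with TNFa and P3C was seen on F (-1.18) and J (-2.03) without overlap, whereas those with TNFa, P3C, PGE2 and IFNb (0.05 and -2.93) and with PGE2 (-0.47 and -2.81) were clear of the untreated wells on plate J only.

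Cytokines added to LPS_lo lowered Clec4e and Clec4d to unlike degrees. With LPS_lo alone (n = 11) Clec4e was at 12.3, 73.6 and 143 CPM and Clec4d at 404, 575 and 810 CPM. IL10 in addition left Clec4e at 7.39, 6.36, 6.05, 0 and 11.3 CPM, wholly below LPS_lo alone (log2 change -3.37, SE 0.58, adjusted p = 1.02e-05, and -2.81 in the second fit), and Clec4d at 187 to 381 CPM, also wholly below it but not called (-1.01, adjusted p = 0.0975). The mix of IL4, IL10 and IL13 gave Clec4e values of 1.38, 3.80, 1.82, 14.3 and 7.21 CPM (-3.45, SE 0.58) and Clec4d values of 267, 247, 317, 41.1 and 97.3 CPM (-1.89, SE 0.36). TGFb lowered Clec4e to 6.94, 15.5 and 24.2 CPM (-1.97, SE 0.50, n = 8), by -2.75 on plate F and by -0.75 on plate J, where the groups overlapped. IL4 alone with LPS_lo lowered Clec4d (389, 193, 203, 172 and 48.8 CPM, -1.77, SE 0.36), while its Clec4e was at 14.2 to 70.6 CPM and was not called. The groups with IL10, the mix or IL4 shared only plate E with LPS_lo alone. On that plate Clec4e differed by -3.06 with IL10 and -4.31 with the mix, and Clec4d by -1.04 with the mix and -1.32 with IL4. IFNg lowered Clec4d (-1.13, and -1.0 in the second fit), and TGFb did so in the first fit only (-1.18, then -0.82).

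Over the 25 comparisons of an added agent, Clec4e rose in 2 and fell in 4, Clec4d rose in 4 and fell in 4, Clec4n rose in 2 and fell in 1 and Clec5a rose in 2, where 1.37% of values over all genes were rises and 1.45% falls (1.61% and 1.61% in the second fit). All calls of Clec4e, Clec4n and Clec5a held, as did 2 rises and 3 falls of Clec4d. Between LPS_lo with and without IL10, 2.33% of genes were called.

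**Figure D3:**
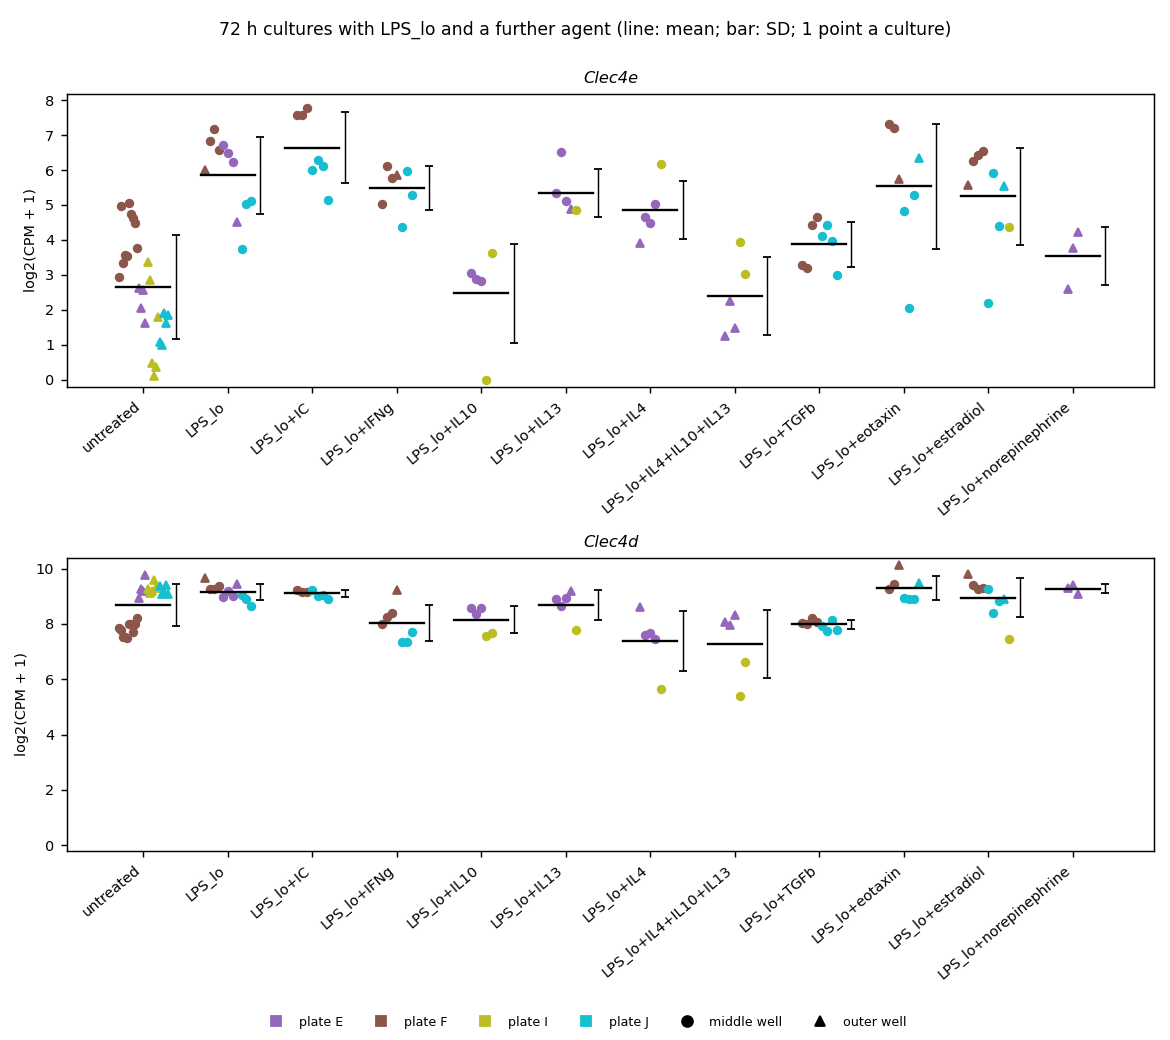
Level of Clec4e and Clec4d (log2 of CPM + 1) in each 72 h culture with LPS_lo and a further agent, coloured by plate, with circles for middle and triangles for outer wells, lines for means and bars for the SD. With IL10, or with IL4, IL10 and IL13, Clec4e is at 14.3 CPM or less, against 12.3 to 143 CPM with LPS_lo alone.

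Across the 97 conditions the mean levels formed a gradual order. On the log2(CPM + 1) scale Clec4e ran from 0.57 (72 h IL4) to 10.35 (72 h TNFa+PGE2), Clec4d from 5.55 to 10.83 between the same 2 conditions, Clec4n from 2.65 (72 h IL4+IL10+IL13) to 9.22 (72 h P3C+PGE2) and Clec5a from 1.29 (72 h IFNa) to 5.68 (4 h LPS_hi+nicotine). Of the 96 steps between neighbours in each order, 1 for Clec4e, 1 for Clec4d and 0 for Clec4n and Clec5a were larger than the SDs of both neighbours. The step of Clec4d, 0.67, set 72 h TNFa+PGE2 above all other conditions. Clec4e was at 0 in 26 cultures, Clec5a in 29, Clec4n in 4 and Clec4d in none of the 784.

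Among the 4 genes, the adjacent Clec4d and Clec4n had the highest Pearson's r between condition means, 0.59. It was 0.50 for Clec4e and Clec5a, 0.41 for Clec4e and Clec4d, 0.16 for Clec4e and Clec4n and 0.00 for Clec4d and Clec5a. Within 24 h and 72 h, Clec4e and Clec5a had 0.29 and 0.36, and Clec4e and Clec4d 0.32 and 0.66. Clec4d and Clec4n were also the genes with the larger differences between outer and middle wells. Over middle wells alone, in the 83 conditions with at least 3 of them, their r was 0.53, against 0.51 for Clec4e and Clec4d, and at 72 h 0.66 against 0.75. The conditions share plates and lots, so these values are descriptions. Among all 16942 genes, Clec4e was most like Ptges (r = 0.93), which makes PGE2, Marcksl1 (0.91) and Nfkbia (0.90), the inhibitor of NF-kB that NF-kB itself induces. Clec4d was most like Slc7a11 (0.71), the cystine transporter, Ampd3 (0.71) and Ninj1 (0.70). Clec4n was most like Mturn (0.61), Clec4d (0.59) and Gsta3 (0.58), and Clec5a like Acsl1 (0.69), Nrp2 (0.67) and Myo10 (0.66).

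The signalling chain behind the receptors was called in part. With LPS_hi at 24 h, 4 of its 13 genes rose (Syk, Malt1, Lyn and Ptpn6) and 3 fell (Tyrobp, Hcst and Plcg2), with a median log2 change of 0.78 beside -0.14 over all genes, of which 16.2% were called. Malt1 rose most, from 7.76 ± 5.49 CPM (SD, n = 40) to 62.6 ± 35.7 (n = 18, log2 change 2.87). Syk rose from 140 ± 36.6 to 430 ± 84.6 CPM (1.64), and Tyrobp, the adaptor of MDL-1, fell from 949 ± 203 to 435 ± 107 CPM (-1.13). The value of Fcer1g, the adaptor of the other 3 receptors, was 0.95 (adjusted p = 3.24e-19), just under the fold required, and that of Card9 was 0.32 (adjusted p = 0.421). With TNFa at 24 h (2.97% of genes called), and with TNFa added to PGE2 at 72 h (8.85%), Malt1 was the only call of the list, at 1.61 and 1.47. With IL10 added to LPS_lo (2.33%), the call was a fall of Prkcd (-1.13).

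Of 6 other lectin genes of the same stretch of chromosome 6, 4 were tested. Clec4a1 (log2 change 4.04), Clec4a3 (1.94) and Clec4a2 (1.36) rose with LPS_hi at 24 h, where 16.2% of all genes were called. Clec4a1 (3.13) and Clec4a2 (2.46) rose when TNFa was added to PGE2 (8.85% of all genes). None was called with TNFa at 24 h (2.97%) or with IL10 added to LPS_lo (2.33%). Among the 9 other myeloid lectins, Olr1 (1.71), Clec12a (1.22) and Clec2d (1.08) rose with LPS_hi, and Clec7a (-1.10) and the mannose receptor Mrc1 (-3.51) fell. With TNFa at 24 h Olr1 rose (1.48) and Mrc1 fell (-1.58), and no gene of that list was called in the remaining 2 comparisons of cultures. Olr1 was under 5 CPM in every untreated culture of 24 h (4.71 CPM at most), so no count of the rises is given.

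Of the regulators of transcription, Cebpb rose from 100.5 ± 41.9 to 391 ± 161 CPM with LPS_hi (log2 change 2.01, SE 0.24), by 1.46 (SE 0.34) with TNFa and by 1.72 (SE 0.42) when TNFa was added to PGE2. Its value with IL10 added to LPS_lo was -1.14 (adjusted p = 0.162). Of the 11 genes, 6 rose with LPS_hi, 4 with TNFa and 6 with TNFa added to PGE2, led by Nfkbiz (3.80), Relb (1.94) and Cebpd (2.43) in that order, and Cebpa fell in each (-2.81, -1.76 and -2.18). The share of all genes called was 16.2%, 2.97% and 8.85% in the same order. With IL10 added to LPS_lo, where 2.33% of all genes were called, Nfkb1 (-1.46) and Nfkbiz (-2.58) fell. Among 12 cytokines and mediators that these receptors are known to drive, of which 11 were tested, Nos2 (7.07) and Il1b (6.36) rose most with LPS_hi. Csf3 and Il12b were under 5 CPM in every untreated culture of 24 h, so no count of the rises is given. When TNFa was added to PGE2, 3 rose, led by Cxcl2 (5.71), and Ccl3 fell (-1.18), and with TNFa at 24 h Cxcl2 rose (2.20) and Ccl3 fell (-1.20). With IL10 added to LPS_lo, Tnf, Il1b and Il10 fell, Il1b most (-3.92). LPS and TNFa also have receptors of their own, and which receptor carried these changes was not tested.

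Marker genes of other cells were set beside the largest change. In TNFa+PGE2 cultures the 9 neutrophil markers summed to between 21.4 and 749 CPM, against 0.316 to 50.1 CPM with PGE2 alone, and Camp, Mmp8 and S100a8 rose, while Ly6g, Ngp, Ltf, Retnlg and S100a9 were at 0 in all TNFa+PGE2 cultures. The 9 microglia markers summed to between 224 and 833 CPM against 502 to 1510 CPM, and Sall1 and Cx3cr1 were among those that fell. The 5 markers of perivascular macrophages summed to between 665 and 6069 CPM against 446 to 1767 CPM, with a rise of Pf4 only and Lyve1 at 0 in all 16 cultures. The 8 monocyte markers summed to between 41.8 and 186 CPM against 8.15 to 52.3 CPM, and Ly6c2 (log2 change 2.34) and Fn1 (2.71) rose, while Plac8, Chil3 and F13a1 were at 0 in all TNFa+PGE2 cultures. The part of these values in the lectin levels was not tested. Microglia markers summed to between 1179 and 3785 CPM in untreated cultures of 24 h, between 213 and 704 CPM with LPS_hi, between 712 and 1027 CPM with TNFa at that time, and between 29223 and 39012 CPM in PBS mice, in tables that were normalised separately.

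In mice, 4 h after LPS, the 3 genes of the cluster were higher in each LPS mouse than in any PBS mouse, and Clec5a was not. The share of all genes that part the groups in this way was not counted, so the separation is not shown to be particular to the cluster. Clec4e was at 0.785, 2.74, 3.76 and 3.91 CPM in PBS mice and 31, 47.5, 43.5 and 54.8 CPM in LPS mice (log2 change 3.65, SE 0.32, adjusted p = 1.59e-05), where 19.8% of 9012 genes were called. It passed the filter of 5 CPM in 4 mice through the LPS group alone. Clec4d was at 0.392, 0.866, 0.594 and 1.3 CPM in PBS mice and at 9.25, 13.8, 4.82 and 15.8 CPM in LPS mice, and Clec4n at 1.18, 2.31, 2.18 and 1.45 CPM and at 6.3, 6.19, 4.63 and 4.35 CPM. Both were below the filter, and without it Clec4d rose by 2.65 (SE 0.33, adjusted p = 0.00184) and Clec4n by 1.20 (SE 0.19, adjusted p = 0.00548), with 9.02% of genes called. Clec5a was at 16.9 to 27.8 CPM in PBS mice and 18.4 to 32.3 CPM in LPS mice (log2 value 0.09, adjusted p = 0.787). An exact 2-sided rank-sum test gives 0.0286 for each of the first 3 genes, the smallest p that 4 mice against 4 allow.

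Marker genes of neutrophils and monocytes were also higher in LPS mice. The neutrophil markers summed to between 215 and 405 CPM in LPS mice and between 109 and 195 CPM in PBS mice, and the 8 monocyte markers to between 98.5 and 177 CPM and between 39.9 and 83.9 CPM, with 4 genes of each list called as rises and Ccr2 of the monocyte list as a fall. Both cell types carry Mincle, and a difference in the number of such cells and one in the RNA of each cell cannot be told apart in these samples. The part of such cells in the lectin levels was not tested. Along the chain, Fcer1g rose from 4328 ± 397 to 6058 ± 398 CPM (SD, n = 4 each, log2 change 0.49) and Malt1 by 1.38, while Tyrobp was at 0.08 (adjusted p = 0.780) and Syk at 0.39 (adjusted p = 0.103). Of the neighbours, Clec4a1 rose (0.81) and Clec4a2 fell (-0.86). Of the other lectins Clec2d rose (2.13) and Mgl2 fell (-1.61), Cebpb rose by 3.04, Nfkbiz led the regulators (4.17) with Cebpa falling (-0.89), and of the products Cxcl2 (5.19), Il1b (5.15) and Tnf (4.94) rose most. Clec2d and, of the products, Cxcl1, Il12b and Nos2 passed the filter through the LPS mice alone, so a count of the products that rose has no meaning here.

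Age left no call among the 4 genes, at a background of 3.09% of 9632 genes. Clec5a was at 16, 21.2 and 32.4 CPM at 2 months and 10.8, 17.4 and 27.9 CPM at 22 months (log2 value -0.26, adjusted p = 0.418), and Clec4n at 2.75, 2.99 and 8.49 CPM and at 0.903, 6.04 and 17.8 CPM (0.32, adjusted p = 0.811). Clec4e and Clec4d did not pass the filter. Clec4e was at 0, 2.31 and 4.57 CPM at 2 months and 0.791, 2.92 and 10.8 CPM at 22 months, and Clec4d at 0, 1.23 and 5.06 CPM and 0.264, 2.11 and 12.9 CPM, so the ages overlapped for every gene. The headers give 2 runs of library numbers, and within them Clec5a was at -0.12 and -0.31 on the log2 scale and Clec4n, which could be tested in the second run, at 0.36, none called. Neutrophil markers reached between 223 and 1445 CPM at 2 months and between 422 and 4880 CPM at 22 months, and the part of this in the values was not tested.

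**Figure D4:**
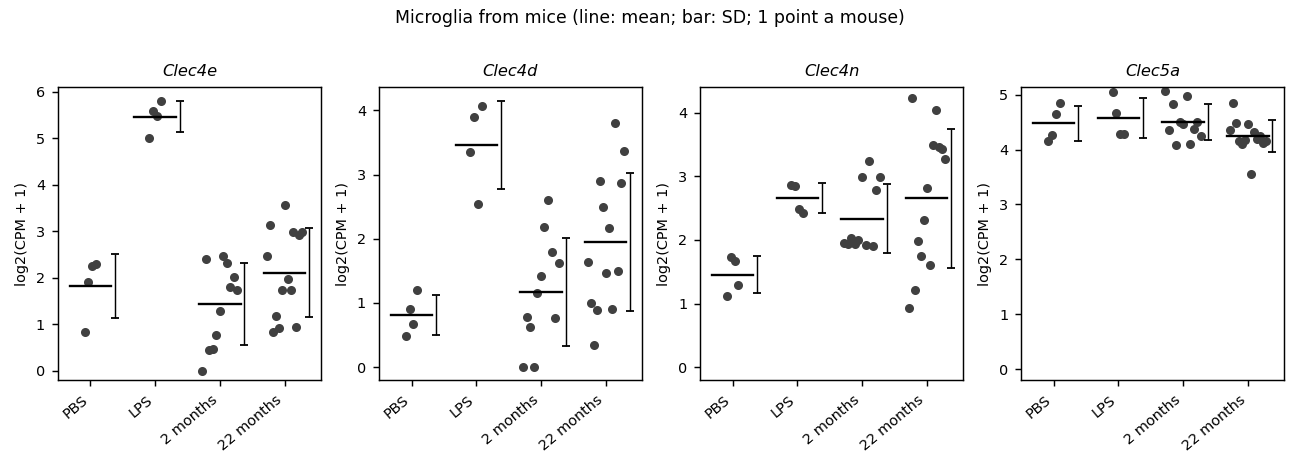
Level of the 4 genes (log2 of CPM + 1) in microglia of each mouse, with lines for means and bars for the SD. Clec4e, Clec4d and Clec4n of the 4 LPS mice lie above those of the 4 PBS mice (31 to 54.8 CPM against 0.785 to 3.91 CPM for Clec4e), whereas Clec5a and both ages overlap.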

How the data were processed

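RNA from 784 cultures of neonatal mouse microglia and from CD11b-isolated brain cells of 32 mice was sequenced from the 3′ end. Reads were assigned by the authors to transcripts of Ensembl build 81 using salmon 0.7.1 (the labels name the genome build mm8), and the authors summed isoforms by gene and divided by the mapped reads, and the deposited values are CPM in 1 table for the cultures and 1 for the mice. Each table was tested on its own. Treatments were taken from the sample labels, also where headers of the mouse table differ from them. Whole reads could not be recovered from the values, so no count test was run.

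Values were taken as log2(CPM + 1) and tested with limma 3.58.1 (R 4.3.3), with p-values adjusted by Benjamini-Hochberg within each comparison. Cultures were fitted in 1 model over all groups and genes over 5 CPM in at least 4 cultures, with an adjusted p under 0.05 and a log2 change of at least 1 for a call. Mice were fitted by experiment, with genes over 5 CPM in at least 4 (LPS) or 11 (age) mice and no minimum fold. A fold on this scale understates the change of low genes. Cultures of 4 h were set against untreated cultures of 24 h. Tables and plots were made with Python 3.11.15, pandas 2.3.3, scipy 1.17.1 and matplotlib 3.10.9. The fits were tested on simulated data. Alternatives changed the pseudocount, filter, scaling, samples or test, and those with well position, and the interactions, were chosen after seeing the data.

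The 4 genes were given, and all are described. The members and lists were chosen with earlier results of these data known. Other genes were named as the top of a list, as the 3 closest in pattern, or as a part of the pathway described.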

Additional observations from a re-analysis of the deposited data

Results flagged for a closer look

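In 47 groups of 4 to 10 cultures or mice, 4 values stood far from the others by Dixon's test, which chance gives in about 1 of 20 groups. Clec4d was at 3530 CPM in 1 culture with TNFa and PGE2 (next 1925 CPM) and at 2138 CPM in 1 culture with PGE2 (next 946 CPM), both at the right edge of plate F. Clec4n was at 1770 CPM in 1 culture with P3C and PGE2 at the left edge of plate J (next 536 CPM). Clec4e was at 0 in 1 culture with LPS_lo and IL10 in the middle of plate I (next 6.05 CPM).

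Pairs of stimuli differed from the sum of their parts in 9 of 16 tests. Of all genes, 27.6% were called for TNFa with PGE2, 24.8% for TNFa with IFNg, 12.8% for TNFa with P3C and 3.39% for P3C with PGE2. The log2 excess for TNFa with PGE2 was 8.66 for Clec4e, 2.33 for Clec4d, 3.87 for Clec4n and 4.53 for Clec5a, with adjusted p of 5.91e-20, 0.000109, 0.00161 and 2.32e-08 (limma). For TNFa with IFNg it was 6.42, 2.29, 3.17 and 2.11 in the same order, with adjusted p of 1.02e-10, 0.000297, 0.0173 and 0.0225. Clec4e with P3C and PGE2 was at -2.92 (adjusted p = 0.00668). In the model with plate and outer wells, the values of TNFa with PGE2 were 8.26, 1.24, 2.52 and 4.34.

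A single culture of 72 h, whose label pairs LPS_hi with the lower dose, entered no comparison. Its Clec4e was at 36.8 CPM, above the 32.6 CPM of the highest untreated culture.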

How the results depend on the processing

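Of the calls in cultures, 34 fell at 24 h, 74 at 72 h, 11 at 4 h, 19 with added agents and 7 with the dose and time of LPS, and these counts stayed within 1.5 times under the alternatives except for 6 at 4 h and 3 for LPS with middle wells only and plate in the model, and 31 for added agents by the exact rank-sum test without adjustment. With middle wells only and plate, 7 of 9 comparisons of 4 h and 4 of 5 of LPS could be run, and these comparisons held 8 and 4 of the 11 and 7 calls. The 3 calls between untreated cultures of 72 h and 24 h became 0 with plate, with library pool, with plate and outer wells, and with middle wells only. No plate held untreated cultures of both times, so the fits with plate link them through other cultures. The 1 call in LPS mice became 3 without the filter and 3 by the exact rank-sum test. Leaving out each culture of groups of 2 to 5 gave 72 to 75 calls at 72 h, 18 to 20 for added agents and 11 at 4 h, and leaving out each mouse gave 1.

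Among single values, 118 of 157 kept their direction and call with plate and outer wells, 35 lost the call and 4 turned. Plate alone kept 133 of 157, pool 114, the groups compared alone 130, middle wells only 98 of 154, no filter 156 of 161, a pseudocount of 0.5 159, a pseudocount of 5 144 and upper quartile scaling 155.

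Direction turned for LPS_hi at 72 h against 24 h in Clec4d (-0.064 with plate, -0.24 with pool, -0.28 with plate and outer wells) and in Clec4n (-0.0080, -0.74 and -1.03). For untreated cultures it turned in Clec4d (-0.42 with pool, -0.079 with plate and outer wells) and in Clec4n (-0.26 with plate, -1.26 with pool, -1.04 with plate and outer wells). Clec4d with TNFa at 72 h was at 0.55 with pool. With middle wells only and plate, Clec4d at 72 h was at 0.20 with TNFa, 0.078 with GMCSF, 0.37 with MPP, 0.64 with norepinephrine and 0.10 with s100B, and Clec5a with IFNa at 0.19. Clec5a in LPS mice ran from -0.066 to 0.22 without 1 mouse. The causes were not tested.

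No paired analysis was possible because the labels give no replicate numbers by which single samples could be paired. Groups that share a plate or library pool were compared with that plate or pool in the model, as given above. Low levels in mice, where 9 of 32 were over 5 CPM for Clec4e and 8 for Clec4d, limit what could be tested there.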
